A study of Rattus norvegicus with 18 samples.

Results

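The genes of the interferon pathway and the genes that interferon induces were followed through rat retinas that had met damaging light, with or without saffron or photobiomodulation (PBM, red light) beforehand. The members were 39 genes listed by symbol, each read at the probe set that carried its symbol alone in the gene table of the array platform. Of these, 37 had a probe set, 1 each, among 29214 probe sets in all. Ddx58, the gene of the RNA sensor RIG-I, and Ifnar2, the gene of the partner chain of the type I interferon receptor, had none under these symbols and were not analysed here.

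Retinal RNA from adult Sprague Dawley rats aged P80 to P120 (days after birth) was read on 18 Affymetrix rat Gene 1.0 ST arrays, 1 retina and 1 rat per array and 3 arrays in each of 6 groups. All rats, controls included, were reared in 5 lux cyclic light on the plant matrix food that also served as the vehicle for saffron. Control rats had no pretreatment and no bright light. Saffron rats ate 1 mg/kg/day of saffron for 3 weeks, and PBM rats received light of 670 nm for 3 min a day on 5 days, neither with bright light. LD (light damage) rats were adapted to the dark overnight and then spent 24 h in bright white light without pretreatment, at 1000 lux in the sample description and at 100 lux in the source name of that group. SafLD and PBMLD rats had the saffron or the PBM first and then 24 h at 1000 lux, and exposed retinas were taken as the light ended. The whole retina was used, so fewer cells of a type and less RNA per cell cannot be told apart in any value below.

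Values are log2 intensities, so that a difference of 1 is 2-fold. Differences are given with their standard error after the plus-or-minus sign, from 1 limma fit of all 18 arrays. A gene was called when its Benjamini-Hochberg adjusted p over all 29214 probe sets was below 0.05 and the change was more than 2-fold, and "rose" is used of called genes only. In a comparison of 3 arrays with 3, no exact test of a single gene can give a p below 0.1. The limma p-values concern the spread between these retinas, with 1 value per probe set pooled over all 6 groups. Among the members the median standard deviation was 0.76 within LD, 0.20 within SafLD and 0.16 within control. The pooled spread is therefore not that of the groups compared alone.

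Array medians lay between 6.12 and 6.19, and no array repeated another (highest correlation 0.9938). The retina label was borne out by the rod markers: 8 of 10 were measured, with mean levels of 12.29 to 12.91 on the 18 arrays. Lens markers moved between arrays within groups. Averaged over 14 of them, the level was 9.73 to 10.23 in the control retinas. LD 1 read 11.87, LD 2 read 9.70 and LD 3 read 11.72. The mean was 11.02 in PBMLD 1 against 10.06 and 10.15 in the other PBMLD retinas, 10.45 to 11.18 with saffron, and 9.62 to 10.53 in PBM and SafLD retinas. Their part in the results below was not tested.

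Interferons are secreted cytokines that alert cells to viral nucleic acid. Type I interferons bind the receptor chains Ifnar1 and Ifnar2, and interferon gamma, the type II interferon, binds Ifngr1 and Ifngr2. Type I signalling assembles a complex with STAT2 and IRF9 that binds the interferon-stimulated response element (ISRE) in promoters, while interferon gamma acts mainly at gamma-activated sites (GAS), and the induced genes code for RNA sensors, blocks to viral entry and translation, GTPases that attack intracellular pathogens, and brakes on the pathway. In the retina, glia, microglia and neurons can all respond to interferon.

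Promoter sequence was not used to choose the members, and the stretches below are shown because they hold the letters that the factors of the pathway are known to read. RefSeq promoters on the rat assembly GRCr8, from 250 bases before to 50 bases after the transcription start, were in the table for 29 of the 37 genes. The ISRE core was searched as GAAA, 2 bases of any kind and GAAA again, and the GAS as TTCNNNGAA, on both strands. The ISRE core was in 18 of the 29 promoters (62.1%), against 3.92% of all 33469 promoters of the same length. The GAS was in 10 of the 29 (34.5%), against 8.87% of all. Many members were listed as genes that interferon induces, so higher shares of these motifs are not independent of the list. In some promoters the motifs overlapped each other, as in Oas1a, where a pair of ISRE cores shared 4 bases. Among the 7 genes that rose in LD against control (below), 5 promoters held the ISRE core and the other two, those of Irf1 and Irf9, held a GAS. Capitals mark the ISRE core in the sequences of Ifih1, Oas1a, Oas1b, Ifit3, Rsad2, Gbp2, Gbp5, Ifitm2 and Ifitm3, and the GAS in those of Irf1 and Irf9, and each sequence runs 5′ to 3′ on the strand of its gene. A match describes letters only and is not evidence of binding.
Irf1: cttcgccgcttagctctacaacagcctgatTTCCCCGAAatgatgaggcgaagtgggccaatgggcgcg
Irf9: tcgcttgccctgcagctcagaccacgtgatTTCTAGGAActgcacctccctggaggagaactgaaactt
Ifih1: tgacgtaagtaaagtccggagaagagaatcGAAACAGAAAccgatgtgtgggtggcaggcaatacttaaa
Oas1a: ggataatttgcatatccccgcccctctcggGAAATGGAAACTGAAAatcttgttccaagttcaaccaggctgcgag
Oas1b: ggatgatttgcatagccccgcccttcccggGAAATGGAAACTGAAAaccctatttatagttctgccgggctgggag
Ifit3: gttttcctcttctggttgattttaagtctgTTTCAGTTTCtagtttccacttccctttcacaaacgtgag
Rsad2: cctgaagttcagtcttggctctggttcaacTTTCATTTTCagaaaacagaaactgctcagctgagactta
Gbp2: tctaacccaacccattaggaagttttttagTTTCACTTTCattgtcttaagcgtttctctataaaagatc
Gbp5: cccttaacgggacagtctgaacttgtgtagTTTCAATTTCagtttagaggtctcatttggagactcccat
Ifitm2: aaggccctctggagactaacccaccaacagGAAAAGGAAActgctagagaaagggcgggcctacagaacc
Ifitm3: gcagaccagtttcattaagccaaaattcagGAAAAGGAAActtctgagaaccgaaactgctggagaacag
On GRCr8 the stretches lay, in the same order, with Irf1 at chr10:38417763-38417831 on the plus strand, Irf9 at chr15:33065707-33065775 on the plus strand, Ifih1 at chr3:67683988-67684057 on the minus strand, Oas1a at chr12:41330395-41330470 on the plus strand, Oas1b at chr12:41395866-41395941 on the minus strand, Ifit3 at chr1:241527252-241527321 on the plus strand, Rsad2 at chr6:48788228-48788297 on the minus strand, Gbp2 at chr2:234005666-234005735 on the plus strand, Gbp5 at chr2:233910913-233910982 on the plus strand, Ifitm2 at chr1:205482342-205482411 on the minus strand and Ifitm3 at chr1:205541763-205541832 on the minus strand. The cores of Oas1a and Oas1b had the same letters, as had those of Ifitm2 and Ifitm3. Counted from the transcription start, the last base of the ISRE core lay at position -22 in Gbp2, -35 in Ifit3, -47 in Gbp5, -50 in Ifih1 and -138 in Rsad2.

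LD against control asked what 24 h of bright light did to these genes. 7 members rose: the GTPases Gbp2 and Gbp5, the antiviral enzyme Rsad2, the RNA-binding protein Ifit3, the transcription factors Irf9 and Irf1, and the RNA sensor Ifih1. That is 7 of 37 members, against 0.466% of all probe sets called higher in LD, and no member was called lower. The members were chosen with earlier results of these data known. Here and below, their contrast with all probe sets is therefore a description and not an independent test. The differences of these genes ran from 1.35 to 3.75 log2. The median over all 37 members was 1.06 log2, against -0.02 over all probe sets, and all 37 differences were above 0. In 15 members every LD array lay above every control array, against 7.54% of all probe sets.

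**Figure D1:**
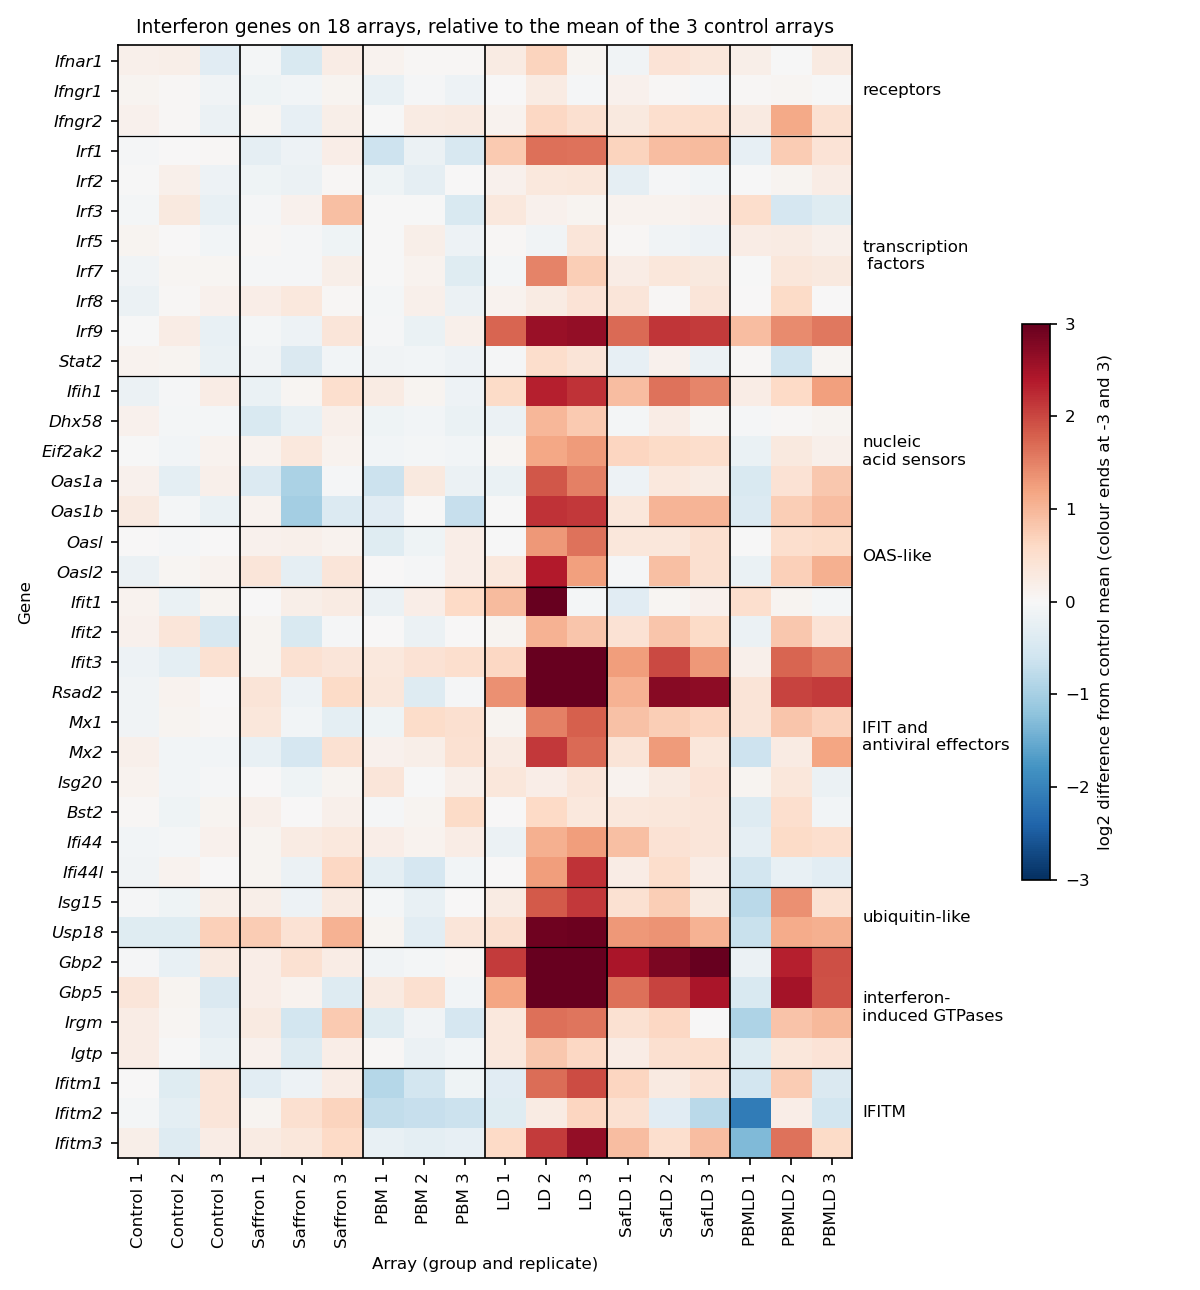
Colour shows the log2 difference of each of 37 genes (rows, grouped by role) from its mean in the 3 control arrays, on 18 arrays (columns, 6 groups divided by black lines); the colour ends at -3 and 3. LD 2 and LD 3 are red in most rows, LD 1 in fewer, among them Irf9, Irf1, Rsad2, Gbp2 and Gbp5, and PBMLD 1 is near the control colour in most rows.

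The response was uneven among the 3 LD retinas. The median member lay 0.12 log2 above its control mean in LD 1, 1.48 above it in LD 2 and 1.29 above it in LD 3, and LD 1 was the lowest LD array in 31 of 37 members. The number of members above all 3 control arrays was 18 in LD 1, 34 in LD 2 and 33 in LD 3, against 21.1%, 23.2% and 32.4% of all probe sets on these arrays. Among the arrays without bright light it was 23 in saffron 3, more than in LD 1, against 25.0% of all probe sets, and 4 to 11 in the other saffron and PBM arrays. The median standard deviation of the members within LD was 0.76, against 0.17 over all probe sets, whereas within the control group it was 0.16 for both. Of the LD arrays, LD 3 was high both in lens markers and in interferon genes, LD 1 in lens markers and LD 2 in interferon genes.

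**Figure D2:**
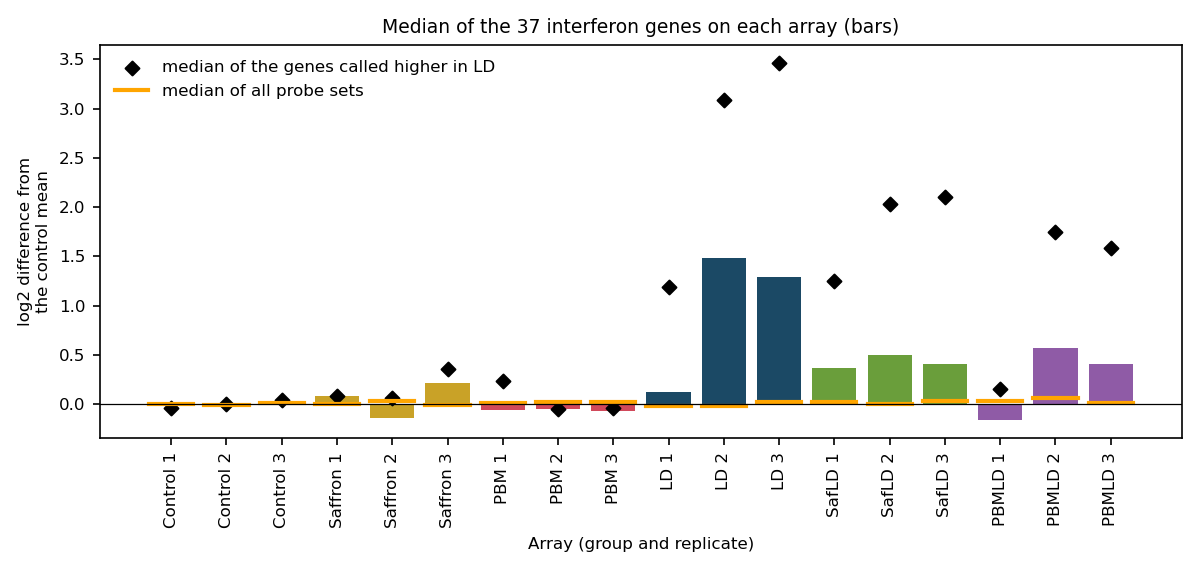
Bars show, for each of 18 arrays, the median over 37 interferon genes of the log2 difference from the control mean; diamonds show the same median over the 7 genes called in LD against control (chosen on these LD arrays) and orange lines that over all 29214 probe sets. LD 2 (1.48) and LD 3 (1.29) are the highest bars, LD 1 (0.12) and PBMLD 1 (-0.16) are the lowest among the exposed arrays, and the SafLD bars lie from 0.37 to 0.50.

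No receptor gene was called in LD. Ifngr2, the signalling chain of the interferon gamma receptor, read 8.48, 8.39 and 8.18 in control, 8.46, 8.97 and 8.82 in LD, 8.64, 8.85 and 8.87 in SafLD and 8.62, 9.49 and 8.81 in PBMLD retinas, after 8.40, 8.11 and 8.53 with saffron and 8.33, 8.59 and 8.61 with PBM alone. All SafLD and PBMLD values lay above the control values, and LD 1 lay among the control values. The LD difference was 0.40 ± 0.19 (adjusted p = 0.533), and over the 3 light responses together (light average, below) it was 0.44 ± 0.11 (adjusted p = 0.0316), under 2-fold.

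Ifnar1, a chain of the type I interferon receptor, read 9.23, 9.25 and 8.74 in control, 9.01, 8.62 and 9.29 in saffron, 9.19, 9.11 and 9.11 in PBM, 9.31, 9.73 and 9.16 in LD, 8.96, 9.48 and 9.41 in SafLD and 9.25, 9.07 and 9.34 in PBMLD retinas. Ifngr1, the ligand-binding chain for interferon gamma, read 8.04, 7.99 and 7.85 in control, 7.83, 7.88 and 8.05 in saffron, 7.73, 7.92 and 7.81 in PBM, 7.98, 8.21 and 7.92 in LD, 8.08, 7.99 and 7.93 in SafLD and 7.99, 8.01 and 7.94 in PBMLD retinas. Exposed and unexposed values of both overlapped. Their LD differences were 0.33 ± 0.19 (adjusted p = 0.639) and 0.07 ± 0.11 (adjusted p = 0.915).

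Of 8 transcription factors, Irf9 and Irf1 rose. Irf9, the DNA-binding part of the type I complex, read 7.12, 7.35 and 6.91 in control retinas, 7.06, 6.97 and 7.50 with saffron alone and 7.10, 6.92 and 7.27 with PBM alone. It read 8.88, 9.72 and 9.76 in LD, 8.82, 9.27 and 9.22 in SafLD and 8.06, 8.54 and 8.71 in PBMLD retinas. All 9 exposed values lay above all 9 unexposed values, also in LD 1 and PBMLD 1. LD exceeded control by 2.33 ± 0.23 (5.02-fold, adjusted p = 2.95e-05).

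Irf1, a factor induced through GAS by interferon gamma, read 6.38, 6.43 and 6.47 in control, 6.15, 6.28 and 6.62 in saffron and 5.80, 6.25 and 5.95 in PBM retinas. In exposed retinas it read 7.21, 8.07 and 8.05 in LD, 7.09, 7.36 and 7.37 in SafLD and 6.17, 7.20 and 6.84 in PBMLD. Every LD and SafLD value lay above every unexposed value, while PBMLD 1 lay below the control values. The LD mean exceeded that of control by 1.35 ± 0.24 (2.55-fold, adjusted p = 0.00739).

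Irf7, the factor that amplifies type I interferon production, read 5.51, 5.68 and 5.68 in control, 5.59, 5.59 and 5.80 in saffron, 5.62, 5.74 and 5.25 in PBM, 5.57, 7.10 and 6.36 in LD, 5.85, 5.97 and 5.92 in SafLD and 5.62, 5.96 and 5.91 in PBMLD retinas. LD 2 and LD 3 stood above all unexposed values and LD 1 did not, and the LD difference of 0.72 ± 0.25 was not called (adjusted p = 0.261). The remaining factors, Irf2, Irf3, Irf5, Irf8 and Stat2, differed by 0.10 to 0.29 log2 in LD, and none was called in any of the comparisons here. Stat2, the transactivating partner of IRF9, differed by 0.29 ± 0.18 in LD (adjusted p = 0.676).

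Among the nucleic acid sensors Ifih1, whose product MDA5 binds long double-stranded RNA, read 5.31, 5.46 and 5.72 in control, 5.29, 5.56 and 5.99 in saffron and 5.74, 5.58 and 5.35 in PBM retinas. It read 6.06, 7.82 and 7.66 in LD, 6.43, 7.13 and 6.97 in SafLD and 5.73, 6.09 and 6.73 in PBMLD retinas. All LD and SafLD values lay above all unexposed values, with LD 1 the lowest of the 6. Against control, LD was higher by 1.68 ± 0.36 (3.21-fold, adjusted p = 0.0279).

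Oas1b, a relative of the 2′-5′ oligoadenylate synthetases that activate RNase L, read 5.67, 5.35 and 5.21 in control, 5.51, 4.38 and 5.01 in saffron and 5.08, 5.39 and 4.71 in PBM retinas. It read 5.39, 7.57 and 7.53 in LD, 5.76, 6.44 and 6.44 in SafLD and 5.01, 6.15 and 6.33 in PBMLD retinas. LD 1 fell within the control range, and LD 2 and LD 3 lay far above it. The LD difference was 1.42 ± 0.47 (adjusted p = 0.231).

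Oas1a, a 2′-5′ oligoadenylate synthetase, read 5.38, 4.95 and 5.41 in control, 4.83, 4.30 and 5.21 in saffron, 4.61, 5.55 and 5.06 in PBM, 5.05, 7.12 and 6.76 in LD, 5.09, 5.57 and 5.49 in SafLD and 4.78, 5.67 and 6.05 in PBMLD retinas. The pattern over the LD arrays was that of Oas1b, and the difference was 1.06 ± 0.42 (adjusted p = 0.385). Eif2ak2, the RNA-activated kinase PKR that halts translation, differed by 0.84 ± 0.22 (adjusted p = 0.0969), and Dhx58, the gene of the RIG-I relative LGP2, by 0.54 ± 0.22 (adjusted p = 0.411). Oas1a and Oas1b lie in a family of near copies, and whether their probes read one another was not tested. The same holds for the IFIT, GBP and IFITM genes and for Irgm and Igtp.

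Both OAS-like genes, Oasl and Oasl2, were high in LD 2 and LD 3. Oasl2 read 4.06, 4.28 and 4.34 in control, 4.59, 3.96 and 4.58 in saffron, 4.23, 4.18 and 4.42 in PBM, 4.55, 6.61 and 5.46 in LD, 4.18, 5.14 and 4.70 in SafLD and 4.02, 4.93 and 5.30 in PBMLD retinas. Oasl read 5.63, 5.57 and 5.63 in control, 5.74, 5.77 and 5.71 in saffron, 5.24, 5.48 and 5.82 in PBM, 5.60, 6.90 and 7.23 in LD, 5.95, 5.96 and 6.08 in SafLD and 5.60, 6.11 and 6.17 in PBMLD retinas. In LD 1 Oasl lay within the control range and Oasl2 lay just above the highest control array. The differences, 1.31 ± 0.39 for Oasl2 (adjusted p = 0.161) and 0.96 ± 0.28 for Oasl (adjusted p = 0.149), were not called.

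Of the 10 IFIT and antiviral effector genes, Rsad2 and Ifit3 rose. Rsad2, whose product viperin makes a nucleotide that ends viral RNA chains, read 4.87, 5.08 and 4.99 in control, 5.37, 4.82 and 5.55 in saffron and 5.31, 4.60 and 4.95 in PBM retinas. It read 6.34, 9.32 and 9.72 in LD, 6.02, 7.72 and 7.67 in SafLD and 5.36, 7.00 and 7.07 in PBMLD retinas. Every LD and SafLD array exceeded every unexposed array, yet LD 1 was far below the other LD arrays. LD exceeded control by 3.48 ± 0.66 (11.1-fold, adjusted p = 0.0124).

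Ifit3, a tetratricopeptide protein of the complexes that bind foreign RNA, read 5.00, 4.86 and 5.63 in control, 5.24, 5.61 and 5.52 in saffron and 5.49, 5.59 and 5.66 in PBM retinas. It read 5.79, 8.25 and 8.62 in LD, 6.41, 7.15 and 6.46 in SafLD and 5.31, 6.91 and 6.75 in PBMLD retinas. LD 1 lay just above the highest unexposed array, while LD 2 and LD 3 lay far above it. The LD mean exceeded that of control by 2.39 ± 0.53 (5.26-fold, adjusted p = 0.0365).

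Ifit1, a related protein that binds RNA lacking the host cap methylation, read 3.25, 2.95 and 3.22 in control, 3.14, 3.32 and 3.38 in saffron, 2.97, 3.33 and 3.73 in PBM, 4.10, 6.34 and 3.07 in LD, 2.79, 3.20 and 3.28 in SafLD and 3.64, 3.22 and 3.07 in PBMLD retinas. LD 2 was by far the highest array, LD 1 lay above all unexposed arrays and LD 3 lay at the control level, and the difference of 1.36 ± 0.50 was not called (adjusted p = 0.317). The mean level of Ifit1 over all arrays was low, 3.44, at percentile 14.6 of all probe sets. The other members of this role lay from 0.30 (Isg20, an exonuclease) to 1.35 log2 (Mx2) above control in LD without a call. Mx1 and Mx2, dynamin-like GTPases that trap viral particles, differed by 1.13 ± 0.31 (adjusted p = 0.116) and 1.35 ± 0.44 (adjusted p = 0.217), and Bst2, the tether of budding virus, by 0.31 ± 0.20 (adjusted p = 0.692). Ifi44l differed by 1.15 ± 0.35 (adjusted p = 0.163), Ifi44 by 0.71 ± 0.29 (adjusted p = 0.391) and Ifit2 by 0.66 ± 0.27 (adjusted p = 0.405).

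The ubiquitin-like pair was high in LD 2 and LD 3. Isg15, a ubiquitin-like modifier, read 5.76, 5.67 and 5.97 in control, 5.98, 5.64 and 6.08 in saffron, 5.73, 5.58 and 5.82 in PBM, 6.05, 7.64 and 7.93 in LD, 6.26, 6.53 and 6.09 in SafLD and 5.00, 7.16 and 6.25 in PBMLD retinas. Usp18, the protease that removes ISG15 and also damps the type I receptor, read 3.30, 3.31 and 4.39 in control, 4.44, 4.11 and 4.70 in saffron, 3.76, 3.35 and 4.03 in PBM, 4.14, 6.58 and 6.60 in LD, 4.97, 5.02 and 4.72 in SafLD and 2.99, 4.77 and 4.73 in PBMLD retinas. For Usp18 the control arrays themselves were spread widely, and LD 1 lay inside their range. The LD differences were 1.40 ± 0.44 for Isg15 (adjusted p = 0.187) and 2.11 ± 0.54 for Usp18 (adjusted p = 0.0805).

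The interferon-induced GTPases held the member with the highest difference in LD, Gbp2. Gbp2, a guanylate-binding protein that coats intracellular pathogens, read 5.53, 5.34 and 5.83 in control, 5.76, 6.02 and 5.80 in saffron and 5.46, 5.51 and 5.60 in PBM retinas. It read 7.66, 9.90 and 10.39 in LD, 8.01, 8.38 and 8.77 in SafLD and 5.39, 7.89 and 7.51 in PBMLD retinas. All LD and SafLD arrays lay above every unexposed array, while PBMLD 1 lay at the control level. Against control, LD was higher by 3.75 ± 0.58 (13.5-fold, adjusted p = 0.00215).

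Gbp5, a guanylate-binding protein linked to inflammasome activity, read 5.13, 4.86 and 4.33 in control, 4.98, 4.87 and 4.39 in saffron and 5.04, 5.25 and 4.70 in PBM retinas. It read 5.96, 8.08 and 8.86 in LD, 6.42, 6.81 and 7.23 in SafLD and 4.31, 7.27 and 6.68 in PBMLD retinas. PBMLD 1 was again low, just below the control range, and the LD and SafLD arrays were all above the unexposed ones. The LD difference was 2.86 ± 0.64 (7.27-fold, adjusted p = 0.0393).

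Irgm, an immunity-related GTPase known from mouse as a regulator of its family, read 6.46, 6.28 and 5.95 in control, 6.51, 5.68 and 7.01 in saffron, 5.86, 6.12 and 5.72 in PBM, 6.55, 7.89 and 7.83 in LD, 6.68, 6.85 and 6.23 in SafLD and 5.31, 7.09 and 7.21 in PBMLD retinas. Saffron 3 lay above LD 1, and the LD difference of 1.19 ± 0.44 was not called (adjusted p = 0.314). Igtp, a relative of Irgm, differed by 0.58 ± 0.20 (adjusted p = 0.271).

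The IFITM genes, which code for membrane proteins that block viral entry, were not called in LD. Ifitm3 read 8.25, 7.70 and 8.30 in control, 8.34, 8.43 and 8.69 in saffron, 7.87, 7.79 and 7.84 in PBM, 8.67, 10.18 and 10.71 in LD, 9.01, 8.59 and 9.00 in SafLD and 6.76, 9.72 and 8.66 in PBMLD retinas. Ifitm1 read 5.78, 5.40 and 6.12 in control, 5.44, 5.61 and 5.98 in saffron, 4.91, 5.21 and 5.63 in PBM, 5.42, 7.45 and 7.72 in LD, 6.41, 6.03 and 6.20 in SafLD and 5.21, 6.53 and 5.34 in PBMLD retinas. PBMLD 1 was the lowest of all 18 arrays for Ifitm3, and LD 1 lay in the control range for Ifitm1.

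Ifitm2 read 7.43, 7.20 and 7.86 in control, 7.58, 7.97 and 8.16 in saffron, 6.75, 6.80 and 6.86 in PBM, 7.14, 7.74 and 8.14 in LD, 7.96, 7.15 and 6.68 in SafLD and 5.40, 7.70 and 6.95 in PBMLD retinas. Its LD values overlapped the control values, all 3 PBM arrays lay below the control arrays, and PBMLD 1 was far below any other array. The LD differences were 1.77 ± 0.54 for Ifitm3 (adjusted p = 0.170), 1.10 ± 0.45 for Ifitm1 (adjusted p = 0.406) and 0.18 ± 0.43 for Ifitm2 (adjusted p = 0.952).

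**Figure D3:**
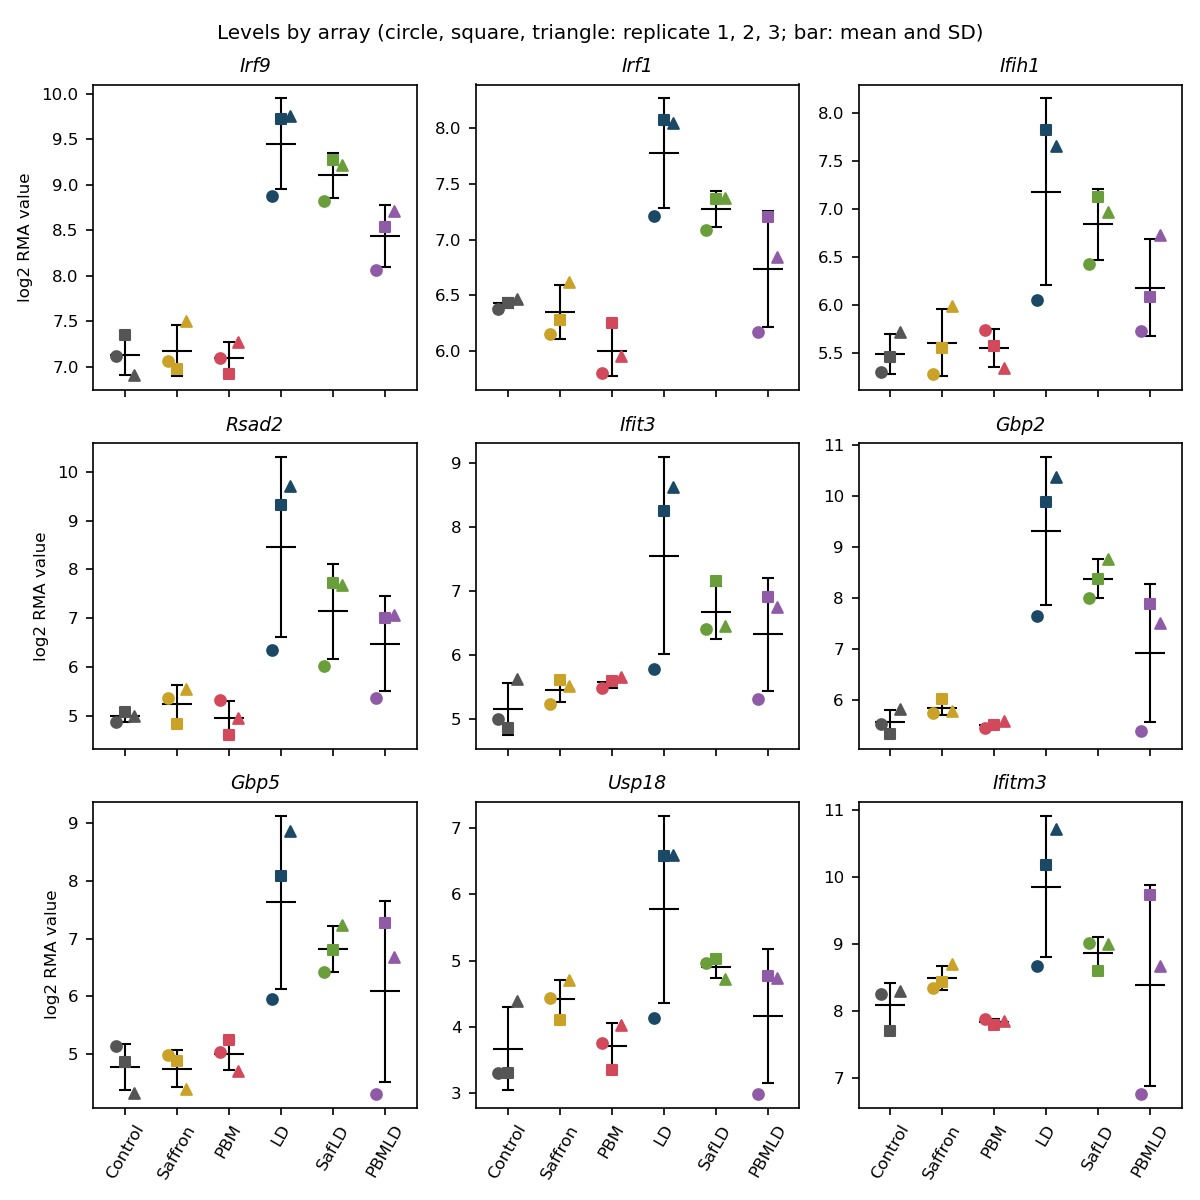
Log2 values of 9 genes in 6 groups of 3 arrays; each symbol is 1 array (circle, square and triangle for replicates 1, 2 and 3), and bars give the mean and standard deviation of the group. In Irf9 all exposed arrays lie above all unexposed ones, whereas in Rsad2, Ifit3, Gbp2, Gbp5, Usp18 and Ifitm3 the first replicate of LD and of PBMLD lies well below the other two.

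The count of LD calls depended on single arrays. Without LD 1 the count was 21 instead of 7, against 0.842% of all probe sets in that fit, with Usp18 at 2.92 (adjusted p = 0.000996), Ifitm3 at 2.36 (adjusted p = 0.0253), Oas1b at 2.14 (adjusted p = 0.00352) and Isg15 at 1.98 (adjusted p = 0.0105), while without LD 2, LD 3 or any 1 of the control arrays it was 3 (0.284% to 0.428% of all probe sets): Irf9 and Gbp2 with Irf1, or with Ifit1 (2.08, adjusted p = 0.0362) where LD 3 was left out. Irf9 and Gbp2 kept their calls whichever of the 18 arrays was left out, and Irf1 missed the threshold only without LD 3 (adjusted p = 0.0595). Rsad2 and Ifih1 were not called without LD 2, LD 3 or any 1 of the control arrays (adjusted p from 0.0516 to 0.193). Ifit3 and Gbp5 were lost without the same arrays (adjusted p from 0.0681 to 0.259), and they also missed 0.05 narrowly without saffron 1, SafLD 3 or any 1 of the PBM arrays (adjusted p from 0.0502 to 0.0564), and Gbp5 without SafLD 2 (0.0567). Other settings of the test that ended calls in LD are given with the processing alternatives.

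In SafLD against control, 2 members rose. Irf9 rose by 1.98 ± 0.23 (adjusted p = 7.3e-05) and Gbp2 by 2.82 ± 0.58 (adjusted p = 0.0131), which is 2 of 37 members, against 0.548% of all probe sets called higher. The median member differed by 0.44 log2, against 0.02 over all probe sets. In 23 of 37 members every SafLD array lay above every control array, as it did in 4051 of all 29214 probe sets. The medians of the SafLD arrays were 0.37, 0.50 and 0.41 above the control mean, and the median standard deviation of the members within SafLD was 0.20. Ifih1 (1.35 ± 0.36, adjusted p = 0.0531), Irf1 (0.85 ± 0.24, adjusted p = 0.0699) and Rsad2 (2.16 ± 0.66, adjusted p = 0.0963) were not called. The count was 1 without control 1, SafLD 2 or SafLD 3, where Gbp2 was lost (adjusted p from 0.0517 to 0.0802), 4 without PBMLD 1 (Ifih1 and Gbp5 added, 0.647% of all probe sets) and 6 without LD 1 (also Ifit3 and Rsad2, 0.582% of all), arrays that enter this comparison only through the shared spread.

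PBMLD against control gave 1 call. Irf9 was higher by 1.31 ± 0.23 (2.47-fold, adjusted p = 0.00848), which is 1 of 37 members, against 0.157% of all probe sets called higher. The median member differed by 0.26 log2, against 0.03 over all probe sets. Every PBMLD array lay above every control array in 6 members and below in 1, against 2650 and 1906 of all 29214 probe sets. The 3 retinas split: the median member lay 0.16 below its control mean in PBMLD 1, the lowest of its group in 29 of 37 members, and 0.57 and 0.41 above it in PBMLD 2 and PBMLD 3. Gbp2 differed by 1.36 ± 0.58 (adjusted p = 0.358), Rsad2 by 1.50 ± 0.66 (adjusted p = 0.386) and Gbp5 by 1.32 ± 0.64 (adjusted p = 0.436), each with PBMLD 1 near the control level. Without control 3 the count was 0.

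Each pretreatment also had its own unexposed group, which shares no array with the others. In SafLD against saffron, Irf9 rose by 1.93 ± 0.23 (adjusted p = 9.46e-05) and Gbp2 by 2.53 ± 0.58 (adjusted p = 0.0271), 2 of 37 members against 0.400% of all probe sets. In PBMLD against PBM, Irf9 rose by 1.34 ± 0.23 (adjusted p = 0.0132), 1 of 37 members against 0.106% of all probe sets. The median member differed by 0.38 and 0.33 log2, against 0.01 and 0.00 over all probe sets. Every exposed array lay above every unexposed array in 21 members with saffron and 5 with PBM, against 3132 and 2094 of all 29214 probe sets. Irf9 was called in the light response of each of the 3 backgrounds, which have no array in common but share the spread of the 1 fit. With only its own 6 arrays in the fit, the Irf9 call with PBM was lost (adjusted p = 0.0862). The Gbp2 call with saffron was lost without any 1 of the saffron arrays, SafLD 2 or SafLD 3 (adjusted p from 0.0611 to 0.144), which left a count of 1, and without LD 1 the count was 5, with Ifih1, Rsad2 and Gbp5 added (0.462% of all probe sets). The Irf9 call with PBM was also lost without PBM 1, PBM 2, PBMLD 2 or PBMLD 3 (adjusted p from 0.0525 to 0.0924).

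**Figure D4:**
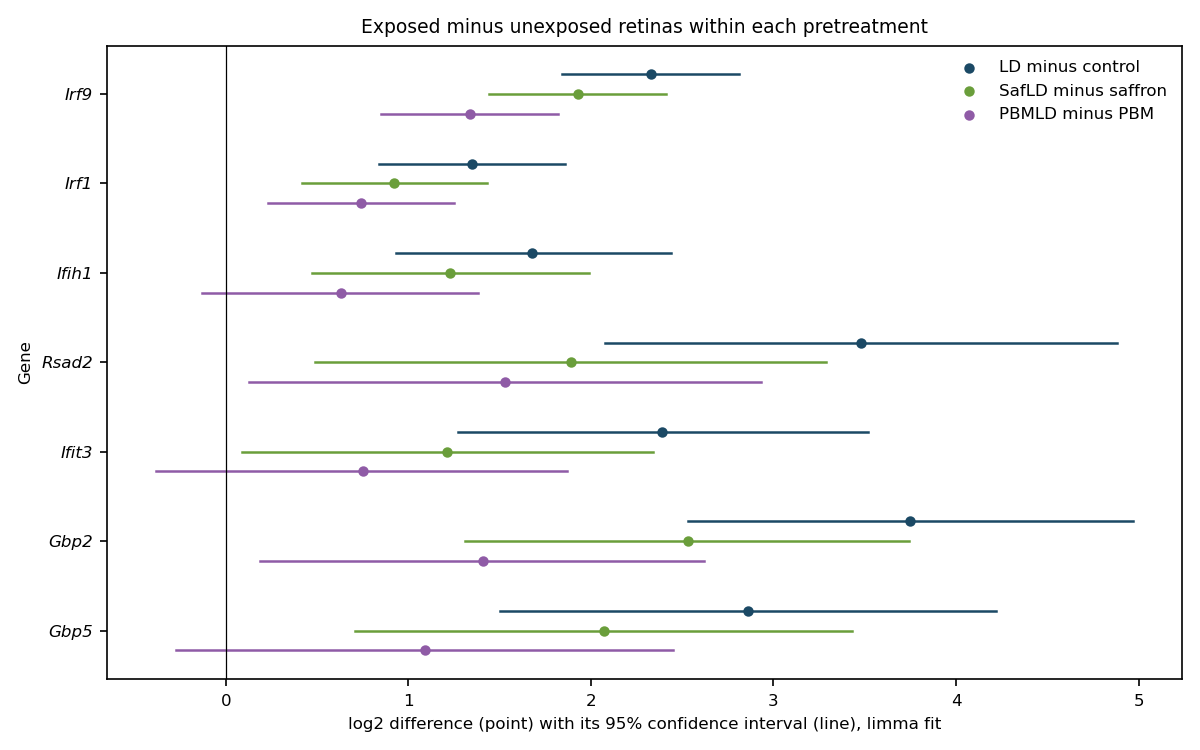
Points give the log2 difference of 7 genes between exposed and unexposed retinas, in rats without pretreatment (LD minus control), with saffron (SafLD minus saffron) and with PBM (PBMLD minus PBM), with 95% confidence intervals from the limma fit; the 7 genes were chosen by their call in LD minus control. Irf9 runs from 2.33 without pretreatment to 1.93 with saffron and 1.34 with PBM, and the intervals of the 3 responses overlap in all 7 genes except for Irf9 between LD and PBMLD, a difference that was not called when tested (adjusted p = 0.999).

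The light average set all 9 exposed against all 9 unexposed retinas as the mean of the 3 light responses. 8 members rose, against 0.377% of all probe sets: Gbp2 by 2.56 ± 0.33 (adjusted p = 0.000121), Rsad2 by 2.30 ± 0.38 (adjusted p = 0.00127), Gbp5 by 2.01 ± 0.37 (adjusted p = 0.00311), Irf9 by 1.86 ± 0.13 (adjusted p = 1.28e-07), Ifit3 by 1.45 ± 0.31 (adjusted p = 0.0088), Ifih1 by 1.18 ± 0.21 (adjusted p = 0.00195), Oas1b by 1.14 ± 0.27 (adjusted p = 0.0186) and Irf1 by 1.00 ± 0.14 (adjusted p = 0.000227). Without the fold limit 12 members passed, with Mx1 (0.74 ± 0.18), Ifit2 (0.60 ± 0.15), Eif2ak2 (0.47 ± 0.13) and Ifngr2 added, against 2.83% of all probe sets. The median member differed by 0.56 log2, against -0.01 over all. Irf1 stood at the fold limit and fell under it in 15 of 27 alternatives, 11 of them fits without 1 array, with its adjusted p at 0.000867 or less. The count lay between 7 and 10 whichever array was left out.

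PBMLD against LD asked whether PBM before the light changed the level reached in the light. No member was called, and 0.212% of all probe sets were called lower. The median member was 0.79 log2 lower in PBMLD, against 0.04 higher over all probe sets, and all but 2 of the 37 members were lower. An unadjusted limma p below 0.05 was found in 21 members, against 11.5% of all probe sets. Markers of other tissues were lower too: the 14 lens markers had a median of -0.55 (-1.71 to -0.21) and the 6 pigment epithelium markers a median of -0.55 (-1.99 to 0.20), none called. The mean level of the pigment epithelium markers was 7.53, 6.99 and 7.43 in LD and 5.71, 7.19 and 6.66 in PBMLD retinas, lowest in PBMLD 1, and their part in this result was not tested. The lowest adjusted p belonged to Irf9 (-1.02 ± 0.23, adjusted p = 0.0767), Ifi44l (-1.52 ± 0.35, adjusted p = 0.0845), Irf1 (-1.04 ± 0.24, adjusted p = 0.0907) and Gbp2 (-2.39 ± 0.58, adjusted p = 0.104). In Irf1, Irf9 and Ifi44l every PBMLD array lay below every LD array, 3 of 37 members against 4.41% of all probe sets.

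Ifi44l, an interferon-induced protein of uncertain function, read 3.73, 3.94 and 3.84 in control, 3.54, 3.34 and 3.76 in PBM, 3.86, 5.10 and 6.01 in LD and 3.29, 3.61 and 3.51 in PBMLD retinas. All 3 PBMLD arrays lay below the control arrays too. Without LD 1, 13 members were called lower in PBMLD, against 0.476% of all probe sets in that fit, with Ifi44l at -2.09 (adjusted p = 0.000389), Gbp2 at -3.21 (adjusted p = 0.00289), Rsad2 at -3.04 (adjusted p = 0.00542) and Irf9 at -1.31 (adjusted p = 0.00615). Without PBMLD 2, Irf1 (-1.27, adjusted p = 0.0255) and Gbp2 (-2.87, adjusted p = 0.0453) were called, against 0.445% of all probe sets. Without any 1 of the other arrays no member was called.

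SafLD against LD gave no call either, with 0.243% of all probe sets called lower. The median member was 0.43 log2 lower, against 0.03 higher over all probe sets. To 2 decimals, 34 of the 37 members were lower, Irf8 did not differ (0.00) and Bst2 and Ifngr2 were 0.03 higher. In 6 members the unadjusted limma p was below 0.05, against 9.55% of all probe sets. The lens markers had a median of -0.84 (-3.13 to -0.24) and the pigment epithelium markers one of -0.52 (-2.15 to 0.36) here, none called. The lowest adjusted p was 0.265 (Irf2, -0.39 ± 0.12). Ifit1 differed by -1.41 ± 0.50 (adjusted p = 0.342), Rsad2 by -1.32 ± 0.66 (95% interval -2.72 to 0.08) and Gbp2 by -0.93 ± 0.58 (-2.14 to 0.29), and the intervals of the last 2 included 0. Without LD 1 the count was 2, Oasl (-1.07, adjusted p = 0.0121) and Ifi44l (-1.39, adjusted p = 0.0183), against 0.246% of all probe sets in that fit.

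**Figure D5:**
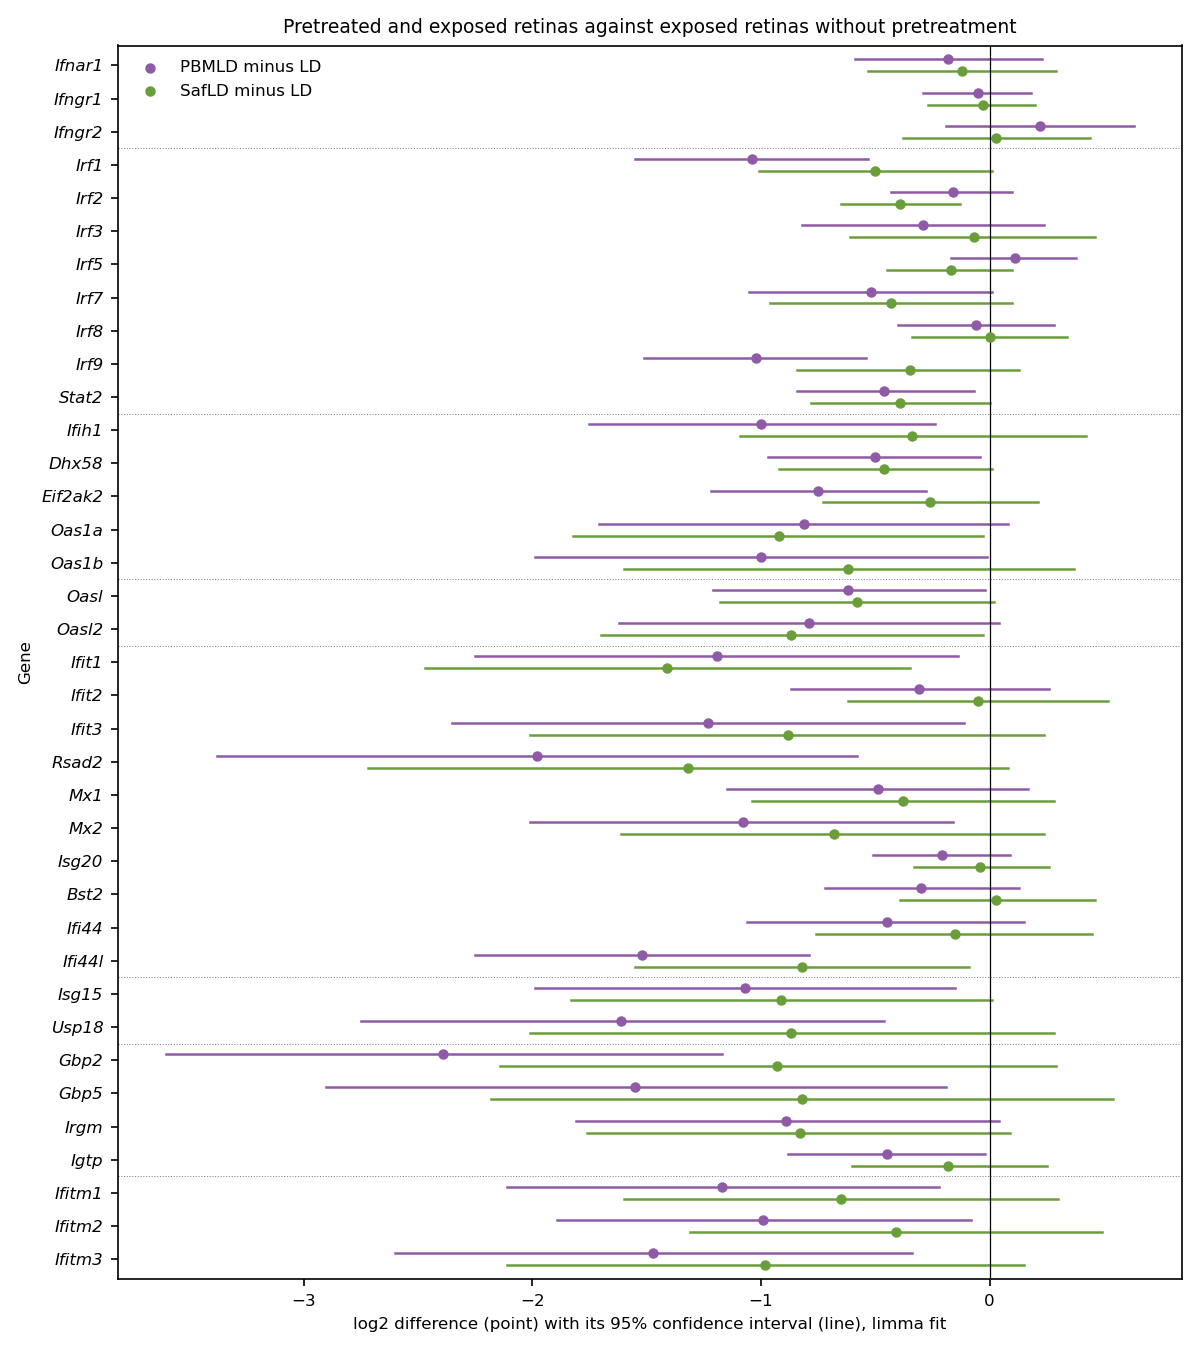
Points give the log2 difference of each of 37 genes in PBMLD minus LD and SafLD minus LD, with 95% confidence intervals from the limma fit and dotted lines between roles; both comparisons use the same 3 LD arrays. Most points lie left of 0, from -2.39 (Gbp2) to 0.22 (Ifngr2) for PBMLD and from -1.41 (Ifit1) to 0.03 for SafLD, and no gene passed the adjusted threshold.

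The difference between light responses was tested directly. For PBM, the response (PBMLD minus PBM) minus (LD minus control) had a median of -0.62 log2 over the members, against 0.02 over all probe sets, and no member was called (lowest adjusted p = 0.999), with 7 members at an unadjusted limma p below 0.05, against 4.26% of all probe sets. Irf9 differed by -0.99 ± 0.33 and Gbp2 by -2.34 ± 0.82. For saffron the median was -0.43 log2, against 0.03 over all, with no member called (lowest adjusted p = 0.838) and 1, Ifit1, at an unadjusted limma p below 0.05, against 5.84% of all probe sets. Irf9 differed by -0.40 ± 0.33 and Gbp2 by -1.22 ± 0.82. A weaker light response after either pretreatment was therefore not shown for any single member.

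Without bright light, neither pretreatment gave a call. In PBM against control no member was called, against 0.133% of all probe sets in either direction, no member had an unadjusted limma p below 0.05 (9.96% of all probe sets did), and the median member differed by -0.05 log2. The lowest adjusted p was that of Irf1 (-0.43 ± 0.24, adjusted p = 0.586). In saffron against control no member was called, against 0% of all probe sets, none had an unadjusted limma p below 0.05 (4.60% of all probe sets did), and the median was 0.05 log2. The differences ran from -0.69 (Ifitm2) to 0.42 log2 (Ifit3) with PBM and from -0.46 (Oas1a) to 0.75 log2 (Usp18) with saffron. All of these differences were under 2-fold, so no test with the fold limit could call a member, the methods' t-test included.

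Other genes of the pathway were read from lists. For these lists and the cell markers below, 0.466% of all probe sets were called higher in LD against control. Called lower were 19 of all 29214. No interferon gene passed the test: of 14 listed ligands 5 were measured, none was called, and the LD differences were 0.39 ± 0.25 for Ifnk, 0.28 ± 0.19 for Ifng, -0.22 ± 0.17 for Ifna5 and -0.19 ± 0.20 for Ifnb1, with a median of 0.03. Ifnb1, the interferon beta gene, read 3.97, 4.18 and 3.87 in control and 3.88, 3.60 and 3.96 in LD retinas. Ifng, the interferon gamma gene, read 2.74, 3.02 and 3.05 in control and 2.91, 3.02 and 3.73 in LD retinas. The 5 measured ligands averaged 4.31 to 4.36 on the control arrays and 4.23 to 4.59 on the LD arrays, below the array medians of 6.12 to 6.19. Whether their probe sets could show a change at such low levels was not tested. Whether interferon protein was present was not measured.

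Of 11 measured receptor-proximal kinases, STATs and brakes, 3 were called higher in LD, with a list median of 0.30: Socs3 (3.01 ± 0.34, adjusted p = 0.000169), Stat3 (2.03 ± 0.18, adjusted p = 1.23e-05) and Ptpn1 (1.07 ± 0.18, adjusted p = 0.00408), while Il10rb differed by 0.65 ± 0.25 (adjusted p = 0.364). Stat3 and Socs3 are known as the transcription factor and the feedback brake of the gp130 cytokines, and Ptpn1 is a phosphatase that acts on Janus kinases. Stat3 read 10.41, 11.00 and 10.73 in LD against 8.73, 8.78 and 8.56 in control retinas, with LD 1 close to the other LD arrays, unlike in most interferon genes.

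Of 4 chemokines that interferon induces, Cxcl10 was called, at 4.27 ± 0.89 in LD (19.3-fold, adjusted p = 0.0240), and the list median was 1.19. Cxcl10 read 4.50, 4.60 and 4.31 in control, 6.35, 9.83 and 10.05 in LD, 6.50, 7.92 and 7.85 in SafLD and 4.71, 9.02 and 7.82 in PBMLD retinas. LD 1 and PBMLD 1 were the lowest of their groups here too. Cxcl11 differed by 1.52 ± 0.37 (adjusted p = 0.0605), Cxcl9 by 0.87 ± 0.23 (adjusted p = 0.0847) and Ccl5 by 0.13 ± 0.17 (adjusted p = 0.889).

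Of 32 measured other interferon-stimulated genes 1 was called higher in LD, Slfn2 (1.06 ± 0.22, adjusted p = 0.0245), none lower, and the median was 0.30. The others with the highest differences, Ifi47 (1.74 ± 0.43, adjusted p = 0.0665), Oas1i (1.48 ± 0.42, adjusted p = 0.127) and Rtp4 (1.00 ± 0.37, adjusted p = 0.312), were not called. Of 14 upstream sensors and adaptors 1 was called, the Toll-like receptor adaptor Myd88 (1.27 ± 0.25, adjusted p = 0.0150), with a median of 0.01, while Trim25 differed by 0.92 ± 0.25 (adjusted p = 0.0978), Tlr7 by 0.44 ± 0.26 and Tlr2 by 0.38 ± 0.18. Of 10 antigen presentation genes 1 was called, the peptide transporter Tap1 (1.29 ± 0.30, adjusted p = 0.0494), with a median of 0.14, while Cd74 differed by 0.92 ± 0.35, Tapbp by -0.67 ± 0.20 and B2m by 0.60 ± 0.29.

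No marker of immune cells was called higher in LD. Of 15 microglia and macrophage markers none was called higher and 1, P2ry12, was lower (-1.04 ± 0.24, adjusted p = 0.0419), the list median was -0.04, and the mean level was 5.42 to 5.71 on the LD arrays and 5.45 to 5.63 on the control arrays. Some markers of this list had uncalled differences in the other direction. Cd14, a receptor for bacterial lipopolysaccharide, read 5.52, 5.54 and 5.76 in control and 5.77, 6.50 and 6.86 in LD retinas (0.77 ± 0.28, adjusted p = 0.298). Ptprc, the leukocyte antigen CD45, read 4.87, 4.82 and 4.35 in control and 4.73, 5.69 and 5.67 in LD retinas (0.68 ± 0.27, adjusted p = 0.379). Fcgr3a (0.63 ± 0.25, adjusted p = 0.374) and Cd68 (0.57 ± 0.24, adjusted p = 0.450) were other such genes. In all 4, LD 2 and LD 3 lay above the control arrays and LD 1 lay within or next to their range, and their part in the results was not tested. None of 11 T and NK cell markers (median 0.00), none of 8 neutrophil markers (median 0.02) and none of 3 measured plasmacytoid dendritic and B cell markers (median -0.11) was called, with mean levels of 4.27 to 4.61, 3.96 to 4.15 and 5.76 to 5.91 on the LD arrays and 4.34 to 4.45, 4.01 to 4.04 and 5.96 to 6.05 on the control arrays. Of 7 Muller cell and astrocyte markers 1 was called, Gfap (3.27 ± 0.27, adjusted p = 7.25e-06), with a median of -0.08. The 14 lens markers had a median of 0.87 and the 6 pigment epithelium markers a median of 0.52 in LD, with none called, and rods a median of -0.17.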

How the data were processed

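Retinal RNA was hybridised to 18 arrays, 3 in each of 6 groups taken from the sample labels. The deposited values are log2 intensities that the authors made by RMA (background correction, quantile normalization and summary of the probes of a transcript), with Affymetrix Expression Console version 1.1.2800.19935 named in the submitters' processing notes. The genome build behind the probe sets was not given in the sources used here. RMA pulls the arrays to 1 distribution, so that a shift of most genes together could not be seen, and the small number of arrays limits the precision. No column belonged to another series (0).

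Probe sets were named from the platform's gene annotation, in which 15310 had 1 gene symbol, 323 had several and 13581 had none of the 29214. Each of the 37 members had 1 probe set, so the rule of taking the brightest was not needed. A limma fit (limma version 3.58.1, R version 4.3.3) of all 29214 probe sets with 1 mean per group (12 residual and 5.05 prior degrees of freedom) gave 12 comparisons, with Benjamini-Hochberg adjustment over all probe sets and moderated standard errors. The fit was tested on simulated data with known changes. The simulated noise had the same spread in all groups, unlike the members in LD and control here, so unequal spread was not covered. The members and the lists of other genes were chosen with earlier results of these data known. Values on every array are given for the 3 members of each role with the highest absolute LD difference, 22 in all, and up to 4 genes of each other list are named by the same measure. Ifi44l, Ifnb1, Ifng, Stat3, Cxcl10, P2ry12, Cd14, Ptprc, Fcgr3a, Cd68 and Gfap were picked for array values or mention after their values were seen.

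Alternatives were the methods' t-test with and without adjustment, only the groups compared, array weights, robust fitting with a variance trend, median centring, cyclic loess or a repeated quantile normalization, calls without the fold limit, leaving out probe sets with a mean under 6, 1 row per gene, the replicate number as a block, and leaving out each array in turn. Replicate numbers did not pass the check for pairing, and the check is given with the alternatives.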

Additional observations from a re-analysis of the deposited data

Results flagged for a closer look

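Irf3, the factor activated by cytosolic nucleic acid sensors, moved in opposite directions in a pair of light responses. It was 0.18 log2 higher in LD than in control retinas, with all 3 LD arrays above the control mean, and -0.23 log2 in SafLD against saffron retinas, with all 3 SafLD arrays below the saffron mean. The saffron mean was raised by saffron 3 (8.98, against 8.03 and 8.21). The difference between these responses was -0.41 ± 0.36 in the limma fit (adjusted p = 0.905), and neither change was called.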

How the results depend on the processing

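Of 406 counts and medians recomputed under 13 alternatives, 364 were scored as unchanged. A count had to stay within 1.5 times the reported one, and counts that stayed at 0 were included. The median LD difference had to move by less than the standard deviation of the LD arrays' medians (0.12, 1.48 and 1.29). That spread is wide, so this rule was loose. Of 2753 single-gene values 2587 kept their direction and call, 85 lost a call, 76 gained one and 5 changed sign. The last were all small and uncalled: Ifngr1 in LD at -0.01 without LD 2, Irf5 in LD at -0.01 with array weights and -0.03 without LD 3, Ifitm2 in LD at -0.06 without LD 3, and Ifih1 in SafLD against LD at 0.09 with array weights. Over the fits without 1 array, Ifngr1 ran from -0.01 to 0.13, Irf5 from -0.03 to 0.21 and Ifitm2 from -0.06 to 0.44. These totals include values that were not called in the main fit and so could not lose a call. In LD against control 48 calls were lost, all among the 7 called genes. Ifit3 lost its call in 15 of 30 alternatives, Gbp5 in 15 of 29, and Rsad2 and Ifih1 in 7 of 30 each. Irf1 lost its call in 2 of 30, and Irf9 and Gbp2 in 1 of 30 each.

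The methods' t-test with adjustment called 0 members in LD, SafLD and PBMLD against control, in PBMLD against PBM and in SafLD against saffron. Unadjusted it called 7 in SafLD against control, 7 in SafLD against saffron and 1 in PBMLD against LD. With only the compared groups in the fit, 3 members were called in LD against control, 6 in SafLD against control, 5 in SafLD against saffron and 0 in PBMLD against PBM. Array weights gave 6 in SafLD against control and 5 in SafLD against saffron, and the variance trend with robust fitting gave 1 in the latter. The share of all probe sets called was not counted under these settings, so these counts show how calls moved and cannot be set against a background. The causes were not tested.

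Of the 7 genes called in LD, Ifit3 lost its call under the methods' t-test even without adjustment (unadjusted p = 0.0598). Ifit3 also lost it under the variance trend with robust fitting (adjusted p = 0.0704) and array weights (0.0533). Gbp5 lost its call under the robust fitting (0.0746) and the repeated quantile normalization (0.05). With only the compared groups in the fit, Ifih1 (0.171), Ifit3 (0.222), Rsad2 (0.112) and Gbp5 (0.122) lost theirs.

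Leaving out 1 array at a time, the counts ran from 3 to 21 in LD against control, 1 to 6 in SafLD against control, 0 to 1 in PBMLD against control, 0 to 13 in PBMLD against LD, 0 to 2 in SafLD against LD, 0 to 1 in PBMLD against PBM, 1 to 5 in SafLD against saffron and 7 to 10 in the light average, and stayed at 0 in the other comparisons. The median LD difference ran from 0.67 to 1.56 log2, and the members whose LD and control arrays did not overlap numbered 15 to 31, with 31 without LD 1. Groups with an array left out separate more easily in any probe set. The share of all probe sets that did so was not counted in these fits, so these numbers have no background.

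The replicate number as a block gave 3 calls in PBMLD against LD instead of 0 (Irf1, Irf9 and Gbp2). The share of all probe sets called was not counted in that fit. Over all probe sets, same-numbered arrays did not deviate together (45 correlations from -0.39 to 0.31, median -0.05, 10 above 0.1, 14 pairs where an array matched its own number best), so the numbers did not pass the check for pairing. Among the 37 members, replicate 1 was the lowest array in 31 in LD, 29 in PBMLD and 22 in SafLD. Leaving out probe sets with a mean under 6 removed 19 of the 37 members, which then had no value.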
